A study of Mus musculus with 8 samples.

Results

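Late maturation of mouse oligodendrocytes in culture was followed by setting 3 arrays of day 6 against 2 arrays of day 1, which together make 5 of the 8 arrays of the series. The arrays were chosen by their labels, mature for day 6 and immature for day 1, and not by any measured value. The remaining 3 arrays, of immature cells on day 0, entered the estimate of the spread and are shown where the course over days matters. Every array, on all 3 days, carries the same strain, C57BL/6J, and the same genotype, CNP-Cre, where Cre recombinase is driven by the promoter of the lineage gene Cnp. The labels give no floxed allele and no treatment, and as labelled the days differ only in time in culture. Cells shaken off primary cultures grew in DMEM with B27, thyroid hormones and a little horse serum. Total RNA of each sample was labelled with Cy3 and put on 1 Agilent microRNA (miRNA) array. The series text describes independent samples and gives the immature cultures as 1 and 2 days old, whereas the sample labels used here name them day 0 and day 1. No source used here says whether separate animals or litters were taken, so a p-value here covers only the spread among these arrays, which may be technical.

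Oligodendrocytes form the myelin of the brain and spinal cord. They arise from dividing precursor cells that leave the cell cycle, extend processes and switch on myelin genes, a course that cultured cells follow over several days once thyroid hormone is present. MiRNAs are short RNAs that pair through their seed, here bases 2 to 8 from the 5′ end, with sites in messenger RNAs and lower the output of those messages. MiR-219, miR-338 and miR-138 are known to promote the differentiation of oligodendrocytes, and the miR-17 to miR-92a clusters are known to promote proliferation. This second group appears in the series title, in connection with the number of oligodendroglial cells.

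The values are log2 scaled signals. A miRNA was taken as detected where, for any of its probes, a share of 0.5 or more of the spots stood well above background, and signals under a floor of 4.20 were raised to it. Of 611 mouse miRNAs on the array, 199 were detected on at least 3 of the 8 arrays and were tested, and 134 of these were detected on all 5 arrays compared. The day 6 arrays detected 173, 179 and 170 mouse miRNAs, and the day 1 arrays 202 and 150. Across the 199 miRNAs, which are not independent replicates, the day 6 arrays correlated with the day 1 arrays at r between 0.924 and 0.953. The day 6 arrays correlated among themselves at 0.941 to 0.966, and the pair of day 1 arrays at 0.948. Among the day 0 arrays, replicate 1 stood apart. It detected 61 mouse miRNAs, and the spread of its negative control spots was 30.2 intensity units, against 2.54 to 3.88 on the other arrays. All arrays lay on 1 slide, and no spot was saturated.

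MiRNAs whose levels differed most are shown first by their sequences, taken from the RefSeq table of build GRCm38.p6 and written 5′ to 3′. A mature sequence was found for 165 of the 199 tested miRNAs, 43 by their array name and 122 through the current name of the same arm. The first set is shown because it shares a simple repeat. Capitals mark runs of at least 3 GU or AC pairs.
miR-466i: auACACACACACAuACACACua
miR-467f: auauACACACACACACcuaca
miR-574-5p: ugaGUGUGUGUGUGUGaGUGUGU
miR-1187: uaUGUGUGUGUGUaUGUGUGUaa

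These lie at chr13:17747552-17747573 on the plus strand, chr11:69635419-69635439 on the minus strand, chr5:64970328-64970350 on the plus strand and chr5:82798964-82798986 on the minus strand, in the order listed. The table names their hairpin genes Mir466i, Mir467f, Mir574 and Mir1187.

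The second set holds other miRNAs with lower means on day 6, with the seed in capitals. It shows that miR-92a and miR-25 share one seed and miR-20a and miR-20b another.
miR-690: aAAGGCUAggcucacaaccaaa
miR-706: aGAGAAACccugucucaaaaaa
miR-494: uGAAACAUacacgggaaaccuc
miR-92a: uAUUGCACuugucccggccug
miR-25: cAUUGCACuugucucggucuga
miR-20a: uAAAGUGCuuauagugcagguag
miR-20b: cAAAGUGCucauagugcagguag
miR-322: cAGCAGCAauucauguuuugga

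MiR-690 lies at chr16:28599940-28599961 and miR-706 at chr6:120034290-120034311, both on the minus strand. MiR-494 lies at chr12:109715367-109715388 on the plus strand, within the imprinted Dlk1-Dio3 clusters. MiR-92a has 2 loci, chr14:115044476-115044496 on the plus strand beside miR-20a at chr14:115044183-115044205, and chrX:52741854-52741874 on the minus strand beside miR-20b at chrX:52742159-52742181. MiR-25 lies at chr5:138165332-138165353 and miR-322 at chrX:53054306-53054327, both on the minus strand.

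The third set holds miRNAs with higher means on day 6, followed by the 3 known from oligodendrocyte differentiation. Capitals again mark the seed.
miR-710: cCAAGUCUuggggagaguugag
miR-711: gGGACCCGgggagagauguaag
miR-139-3p: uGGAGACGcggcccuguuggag
miR-188-5p: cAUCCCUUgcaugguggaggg
miR-483: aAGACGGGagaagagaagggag
miR-218: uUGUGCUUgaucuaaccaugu
miR-338-3p: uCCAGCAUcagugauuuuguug
miR-219: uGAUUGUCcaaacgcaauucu
miR-138: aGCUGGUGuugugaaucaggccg

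MiR-710 lies at chr8:64514401-64514422 on the minus strand and miR-711 at chr9:108969970-108969991 on the plus strand. MiR-139-3p is the 3′ arm of a hairpin at chr7:101475418-101475439 on the plus strand, known to lie in an intron of Pde2a. MiR-483 lies at chr7:142654968-142654989 on the minus strand, known to be intronic to the growth factor gene Igf2, and miR-188-5p at chrX:7248031-7248051 on the minus strand. MiR-218 comes from 2 loci known to lie in introns of Slit2 and Slit3, at chr5:48223966-48223986 and chr11:35616840-35616860, both on the plus strand. The single locus of miR-338-3p is chr11:120014781-120014802 on the minus strand, while miR-219 and miR-138 each have 2 loci in the table.

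In day 6 against day 1 cells, 0 of the 199 tested miRNAs (0%) were called by limma at a Benjamini-Hochberg adjusted p under 0.05, and the smallest adjusted p was 0.151. An unadjusted p under 0.05 was reached by 17 miRNAs, 8.54% of those tested, against 9.95 that a test at this level gives by chance. Of the 17, 6 had higher means on day 6 (3.02% of all tested) and 11 had lower means (5.53%). The 3 day 6 values lay wholly above or wholly below the 2 day 1 values for 54 of the 199 miRNAs (27.1%), 20 above (10.1%) and 34 below (17.1%). An exact permutation of 3 against 2 arrays cannot give a two-sided p below 0.1, so single miRNAs rest on the limma fit with its shared spread. For comparison, day 1 against day 0, in the same fit, gave 3 calls (1.51%). These were miR-494, miR-706 and miR-714, all higher on day 1.

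The median log2 fold, day 6 minus day 1, over the 199 miRNAs was 0.05, with 112 folds above 0 (56.3%), 83 below (41.7%) and 4 miRNAs at the floor on all 5 arrays. That split turned on the scaling. It was 68 above to 125 below with scaling over all probes, 65 to 126 without scaling, 94 to 99 after quantile normalization and 173 to 24 with scaling to the control probes. The median moved to -0.16, -0.14, 0 and 0.59 under these settings. The positive control probes themselves had lower scaled signals on day 6, by log2 differences of -0.42 to -0.81. Folds are therefore given relative to the bulk of miRNAs. In the count of calls, 0 became 3 with control probes, 3 with the floor doubled, 1 when only miRNAs detected on all 8 arrays were tested, and 9 when arrays were weighted by quality. Second probes bore on the sign of single miRNAs. The 57 further probes, detected on at least 3 of the 5 arrays, of the miRNAs named by rule or with an unadjusted p under 0.05 all had the sign of the probe used. Probes detected on fewer arrays were not counted. Further probes read the same RNA on the same arrays, so their sign does not bear on differences among arrays. Without day 0 replicate 1 the count of calls was again 0, with 31 miRNAs at an unadjusted p under 0.05.

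**Figure D1:**
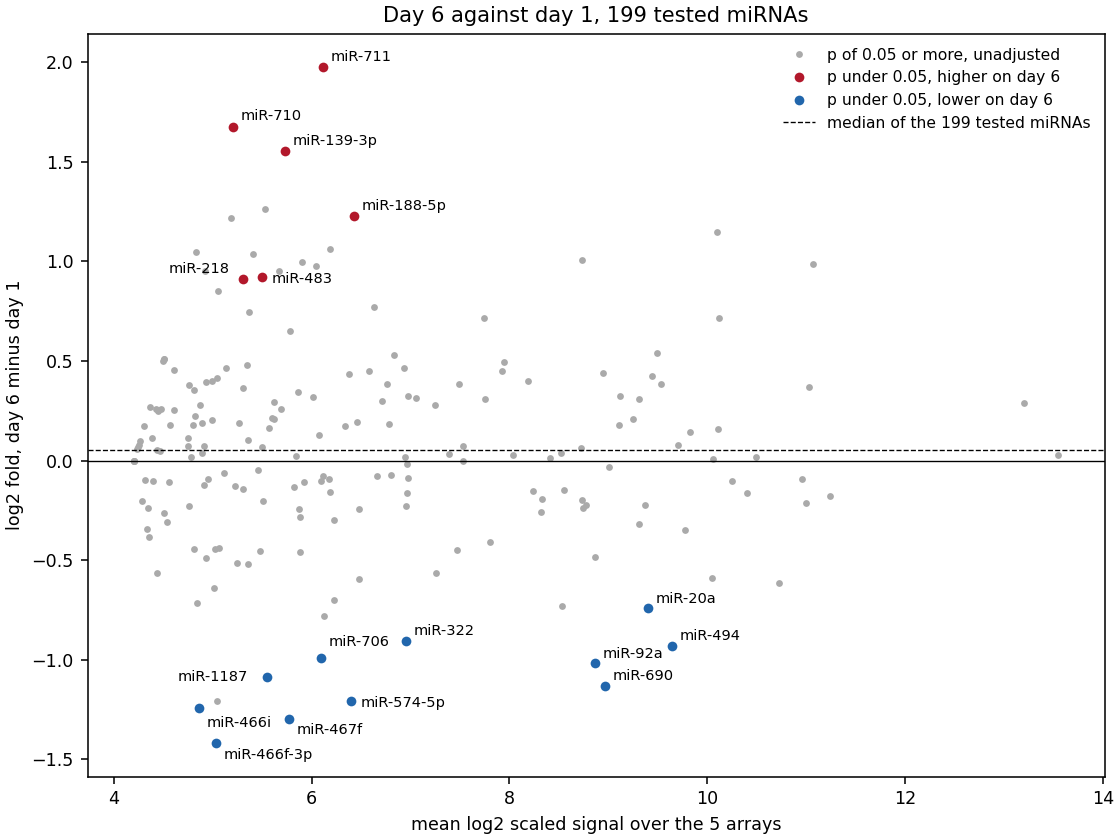
Log2 fold, day 6 minus day 1, against the mean log2 scaled signal over the 5 arrays for the 199 tested miRNAs. Coloured points have an unadjusted p under 0.05, 6 higher and 11 lower on day 6, and none passed the adjusted threshold. The dashed line is the median fold of 0.05, which shifts between -0.16 and 0.59 with the scaling.

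MiR-690 had the smallest p of the lower side. Its log2 scaled signal was 8.52, 8.55 and 8.45 on the day 6 arrays, against 9.54 and 9.75 on the day 1 arrays. The groups did not overlap, and the SD of the 3 day 6 values was 0.05. The log2 fold was -1.13 ± 0.25 SE (limma, adjusted p = 0.151), a 2.19-fold lower level on day 6 with a 95% interval of -1.71 to -0.55. A second probe for miR-690 gave -1.06. Within the rows of the slide, where 1 or 2 day 6 arrays stood beside 1 day 1 array, the fold was -1.09 and -1.21. These folds split the same arrays and are not further evidence. For some other miRNAs, miR-338-3p among them, the rows differed in sign.

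MiR-706 and miR-494 were highest on day 1 of the 3 days. MiR-494, one of the imprinted Dlk1-Dio3 miRNAs, had day 0 values of 7.95, 8.20 and 8.15, day 1 values of 9.98 and 10.43, and day 6 values of 9.57, 9.19 and 9.06. It rose by 2.11 on the log2 scale in day 1 against day 0 cells (adjusted p = 0.00396), and day 6 minus day 1 was -0.93 ± 0.28 SE (adjusted p = 0.247). MiR-494 was not called when arrays were left unscaled or scaled over all probes, or without day 1 replicate 2. No array of one day overlapped another day, and day 6 lay between the other two. MiR-706 had day 0 values of 4.37, 4.59 and 4.43, close to the floor, day 1 values of 6.67 and 6.70, and day 6 values of 5.76, 5.50 and 5.84. Its rise in day 1 against day 0 cells was 2.22 (adjusted p = 0.00143), and day 6 minus day 1 was -0.99 ± 0.24 SE (adjusted p = 0.151). The rise of miR-706 was not called with the mean of all probes or after normexp background correction. Both contrasts use the same day 1 arrays, so a high value there enters each of them with opposite sign. For miR-706 only the probe used was detected on all 5 arrays; a further probe was detected on both day 1 arrays and on no day 6 array, and 2 others on none. MiR-714, the third miRNA called in day 1 against day 0 cells, had a log2 fold of -0.24 in day 6 against day 1.

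The 4 miRNAs with a GU or AC repeat formed a group noticed after the values were seen, so they are described without a test. All 4 had lower values on every day 6 array than on either day 1 array, beside 17.1% of all tested miRNAs, with log2 folds between -1.30 and -1.09 and a median of -1.22. MiR-466i and miR-467f carry AC runs, and miR-574-5p and miR-1187 GU runs. Strands with the same run are alike and can share signal on an array, so the 4 are not 4 separate counts. This likeness holds within the AC pair and within the GU pair, not between them. The 34 tested miRNAs without a matched sequence were not searched for the repeat. The other 161 miRNAs with a sequence had a median of 0.07. The motif read was GUGUGUG or ACACACA on the miRNA's own strand, the 2 forms sharing no letters within one another, and 16 of the 1679 mature mouse sequences of the table (0.953%) hold it. MiR-574-5p had 5.74, 6.10 and 5.90 on day 6, against 6.86 and 7.38 on day 1 (log2 fold, with SE, of -1.21 ± 0.38 at an adjusted p of 0.268). MiR-1187 had 4.92, 5.28 and 5.16 on day 6, against 6.00 and 6.42 on day 1 (-1.09 ± 0.35 SE, adjusted p = 0.268). MiR-467f stood at 5.10, 5.60 and 5.05 on day 6, against 6.67 and 6.42 on day 1 (-1.30 ± 0.56 SE, adjusted p = 0.549). For each of the 3, the highest day 6 value lay below the lowest day 1 value.

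MiR-466i, with the same repeat, was at the floor on 2 day 6 arrays and at 4.69 on the other, against 5.78 and 5.44 on day 1 (log2 fold -1.24 ± 0.33 SE, adjusted p = 0.160). It was detected on 1 of 3 day 6 arrays and on both day 1 arrays. MiR-466f-3p, whose sequence was not matched, had a similar set of values, with 4.30, 4.88 and 4.20 on day 6 and 5.95 and 5.81 on day 1 (-1.42 ± 0.54 SE, adjusted p = 0.452). On day 0 miR-466i, miR-574-5p and miR-1187 lay below both day 1 arrays on every array, with highest values of 4.97, 6.78 and 5.23. MiR-467f was the exception, with 6.94, 5.78 and 4.75, a range that spans both later days. The 6.94 came from day 0 replicate 1, the array that stood apart, while 5.78 and 4.75 lay below both day 1 arrays. The 6.78 of miR-574-5p came from the same array. Day 1 minus day 0 had a median of 0.95 over the 4 repeat miRNAs. All 4 were above 0, beside 43.7% of all tested, and the 3 smallest adjusted p there (limma) were 0.139, 0.410 and 0.410. The share of all tested miRNAs without overlap between days 0 and 1 was not computed. The 4 were noticed through values that include the day 1 arrays, which both contrasts share, so their rise from day 0 is no separate evidence.

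By name, miR-297, miR-466, miR-467 and miR-669 miRNAs, many of which come from a large rodent cluster within the gene Sfmbt2, were represented by 39 miRNAs on the array and 6 that were tested. Of the 6, 5 had folds below 0 and groups that did not overlap, beside a background of 17.1% of all tested, and the median of -0.85 stayed below 0 under every scaling run. None of the 6 was called. MiR-669c was detected on both day 1 arrays and on no day 6 array. Set against the dimmest signal that each day 6 array still detected, day 1 was 1.13-fold higher, which is not a strict minimum. MiR-466i and miR-467f lie outside that cluster in the table, on chromosomes 13 and 11.

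**Figure D2:**
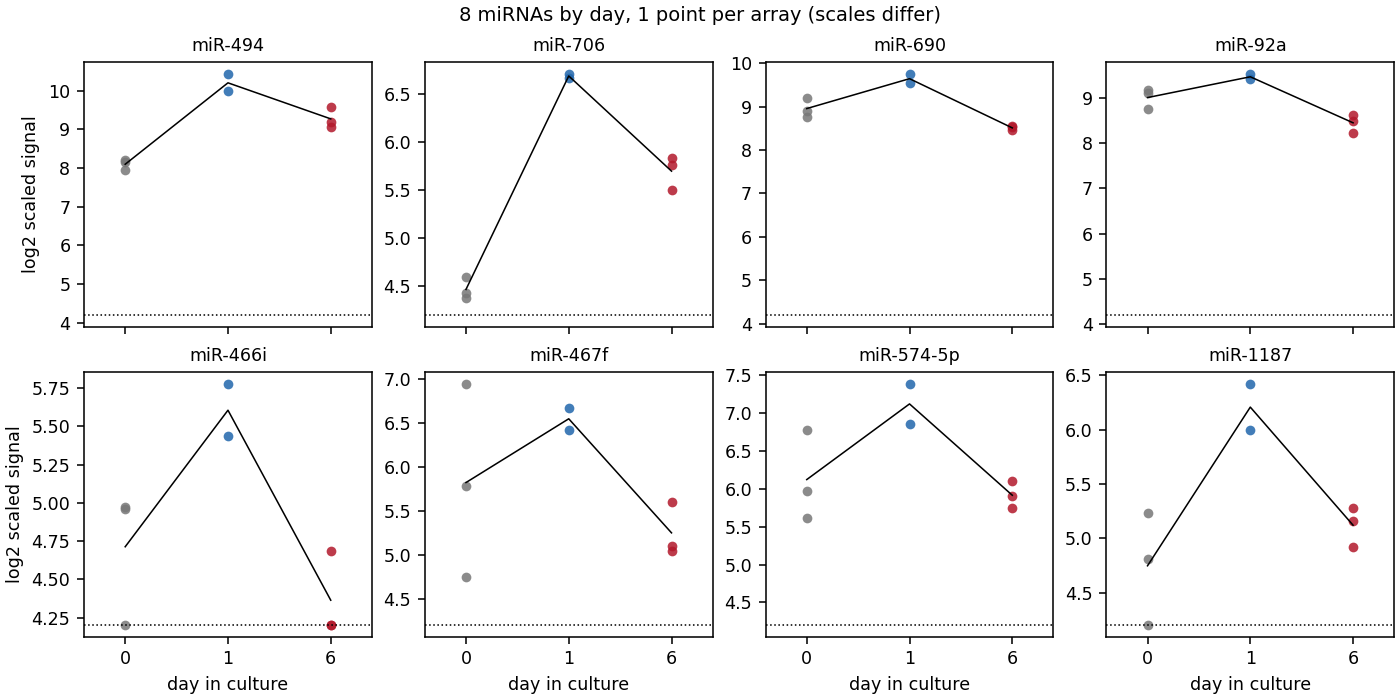
Log2 scaled signal of 8 miRNAs on days 0, 1 and 6, with 1 point per array, a line through the means and the floor dotted. MiR-494 and miR-706 were highest on both day 1 arrays, and the 4 repeat miRNAs of the lower row had lower values on all 3 day 6 arrays than on both day 1 arrays. On day 0, 3 of these 4 lay below both day 1 arrays, a share that was not computed over all tested miRNAs. MiR-467f spread over both later days, with its highest day 0 value on replicate 1, the array that stood apart.

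The miR-17 to miR-92a family spans 3 related clusters, with 12 of the listed strands on the array and 10 of them tested. All 10 had lower means on day 6, with a median log2 fold of -0.59 against 0.05 over all tested miRNAs. With scaling to the control probes that median became -0.00 against 0.59 for all, and the folds of miR-19a, miR-106b, miR-25 and miR-93 turned positive. The other scalings kept all 10 below 0. The groups did not overlap for 7 of the 10, beside 17.1% of all tested on the lower side, and 2 had an unadjusted p under 0.05. No member was called. Summed over the family, the linear scaled signal was 2546 to 3557 on the day 6 arrays, against 4309 and 5243 on the day 1 arrays.

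MiR-92a, known to repress the pro-apoptotic gene Bcl2l11, had the largest difference of the family. It stood at 8.50, 8.23 and 8.63 on day 6, against 9.42 and 9.53 on day 1, with no overlap (log2 fold -1.02 ± 0.26 SE, limma adjusted p = 0.151, 95% interval -1.62 to -0.41). Its second probe gave -1.03. MiR-25, from the paralogous miR-106b cluster and with the same seed, had 7.06, 6.80 and 7.23 on day 6, against 7.40 and 7.79 on day 1 (-0.57 ± 0.33 SE, adjusted p = 0.723). MiR-32, which shares this seed but lies outside the clusters, had a fold of the other sign, 0.38 ± 0.45 SE (adjusted p = 0.953), with 1 of its 2 day 1 values at the floor.

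The seed AAAGUGC is carried by miR-17, miR-20a, miR-20b, miR-93 and miR-106b. All 5 had lower means on day 6, 4 without overlap between the groups (17.1% of all tested on that side), with a median log2 fold of -0.70. MiR-20a had 9.12, 8.85 and 9.35 on day 6, against 10.06 and 9.64 on day 1 (-0.74 ± 0.32 SE, adjusted p = 0.549). MiR-20b, its X-linked counterpart, had 8.27, 7.95 and 8.50 on day 6, against 9.19 and 8.74 on day 1 (-0.73 ± 0.33 SE, adjusted p = 0.549). MiR-17 had 6.12, 5.60 and 6.14 on day 6, against 6.82 and 6.48 on day 1 (-0.70 ± 0.57 SE). These 3 had folds of nearly the same size, and strands as alike as these can share signal on an array. MiR-93 (-0.41) and miR-106b (-0.26), both of the miR-106b cluster, had the smallest differences of the family.

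The remaining members also had folds below 0. MiR-19b, with the seed GUGCAAA, had 9.82, 9.58 and 10.03 on day 6, against 10.60 and 10.21 on day 1 (-0.59 ± 0.33 SE, adjusted p = 0.714). MiR-19a, of the same seed, had a fold of -0.45 ± 0.42 SE, and miR-18a one of -0.60 ± 0.61 SE, both with overlapping groups. Among passenger strands of the family, miR-17* had a log2 fold of -0.46 and miR-20a* one of -0.72. Day 1 minus day 0 had a median of 0.17 over the 10 members, with 0 called, and this contrast shares the day 1 arrays.

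**Figure D3:**
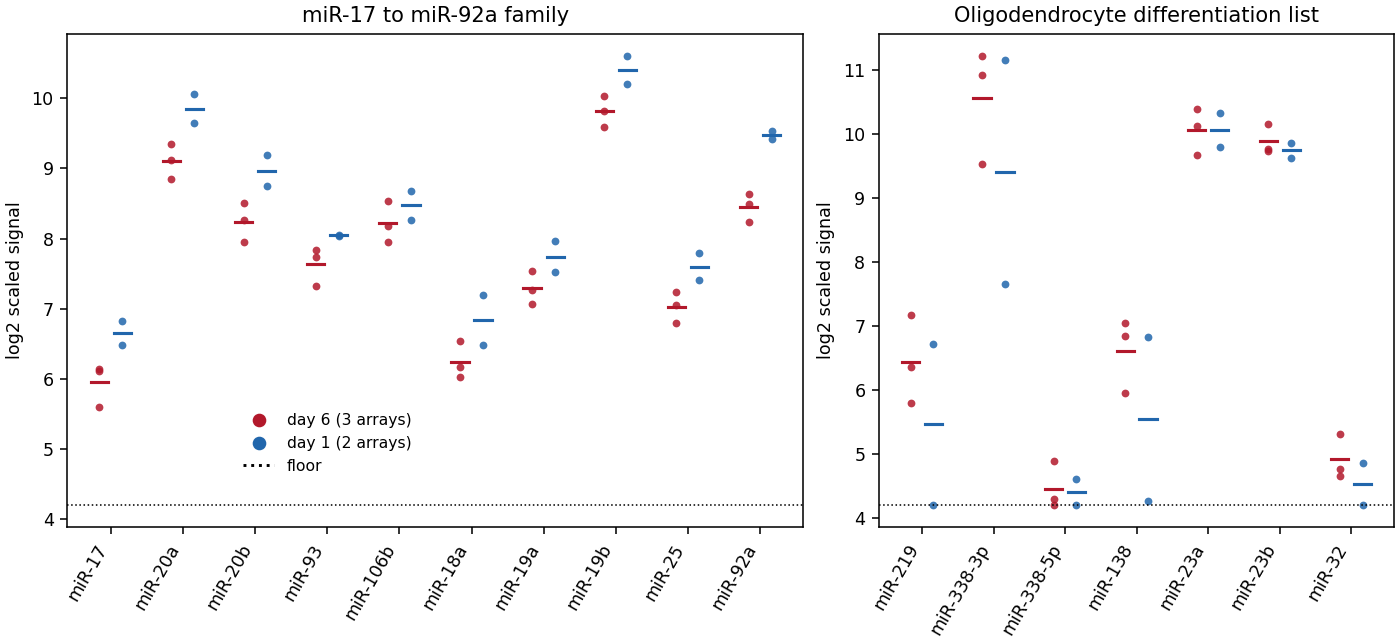
Log2 scaled signal on day 6 and day 1 for the 10 tested miR-17 to miR-92a members (left) and the 7 oligodendrocyte differentiation miRNAs (right). Points are arrays, bars are means and the dotted line is the floor. All 10 members on the left had lower means on day 6 (4 of them turned positive with scaling to control probes), and on the right 1 day 1 array lies far below the other for miR-219, miR-338-3p and miR-138.

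MiR-322 also had a lower mean on day 6. It belongs to the seed group of miR-15 and miR-16, which repress cyclins, and is the mouse counterpart of human miR-424. It had 6.63, 6.51 and 6.65 on day 6, against 7.80 and 7.20 on day 1 (log2 fold -0.91 ± 0.32 SE, adjusted p = 0.413). Its groups did not overlap. On day 0 it had 7.30, 8.07 and 7.97, so that day 6 was the lowest of the 3 days. The other 5 members of the seed group had folds from -0.22 for miR-15b to 0.31 for miR-15a, and the median of the 6 was -0.13, which turned positive with scaling to the control probes.

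On the higher side, miR-710 was detected on each day 6 array and on 0 of the 5 arrays of days 0 and 1. It thus met the filter of 3 arrays only through day 6, where it is high. Its fold and p are therefore descriptive, although it is included in the counts of small p and of groups without overlap. It had 6.62, 5.32 and 5.69 on day 6, while both day 1 values and all 3 day 0 values were at the floor. Set against the dimmest signal that each day 1 array still detected, day 6 was 3.19-fold higher than day 1. That figure is not a strict minimum. Over the alternative settings the log2 fold ran from 0.67 to 2.19. The adjusted p of 0.151 from the limma fit does not refer to the 3.19-fold figure. Values at the floor on days 0 and 1, with an SD of 0, lower the SE and p of the fit. The second detected probe of miR-710 gave a log2 fold of 1.50, and 2 further probes were detected on no array. MiR-711 had 7.55, 6.59 and 6.58 on day 6, against 4.20 (the floor) and 5.66 on day 1, and was at the floor on all 3 day 0 arrays. Its log2 fold of 1.98 ± 0.47 SE (adjusted p = 0.151) rests on a day 1 group with 1 of 2 arrays at the floor. It was 2.70 without day 1 replicate 2 and 1.25 without day 1 replicate 1. The 3 day 0 values at the floor have an SD of 0, against 1.03 for the day 1 values, and lower the pooled SE and p. MiR-711 is outside the naming rule and was chosen after its values were seen. For miR-711 a single probe carried the signal, since the other 3 were detected on at most 1 array.

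MiR-139-3p had 6.74, 6.10 and 6.22 on day 6, against 4.22 and 5.37 on day 1. The groups did not overlap, and the day 1 values lay near the floor (log2 fold 1.56 ± 0.40 SE, adjusted p = 0.151). Its day 0 values were 4.20, 4.49 and 4.79. The log2 fold of miR-139-3p was 0.98 without day 1 replicate 1 and 2.13 without day 1 replicate 2. A single probe carried its signal, since the other was detected on no array. MiR-188-5p had 7.74, 6.36 and 6.67 on day 6, against 5.51 and 5.87 on day 1 (1.23 ± 0.47 SE, adjusted p = 0.452), and its 4 probes gave folds from 0.99 to 1.23. MiR-483 had 6.52, 5.47 and 5.60 on day 6, against 4.64 and 5.24 on day 1 (0.92 ± 0.37 SE, adjusted p = 0.465). Its further probes gave log2 folds of 0.58, 1.06 and 1.24. On day 0 the probe used was at the floor, and the SD of 0 there lowers this SE. By any of its probes, miR-483 was nonetheless detected on 2 of 3 day 0 arrays. Replicate 1 was the highest day 6 array for miR-710, miR-711, miR-139-3p, miR-188-5p and miR-483 alike.

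MiR-218, a miRNA of neurons and especially motor neurons, had 5.70, 5.68 and 5.63 on day 6, against 4.98 and 4.54 on day 1 (log2 fold 0.91 ± 0.35 SE, adjusted p = 0.452). Its day 0 values of 6.29, 5.19 and 5.87 lay around those of day 6. MiR-29b, which represses collagens, had 8.81, 9.63 and 8.98 on day 6, against 8.73 and 7.54 on day 1 (1.01 ± 0.47 SE, adjusted p = 0.567). MiR-22 had 10.35, 10.46 and 10.40 on day 6, against 9.73 and 9.64 on day 1 (0.72 ± 0.41 SE, adjusted p = 0.714), narrow groups that did not overlap. MiR-1224, made from a short intron by splicing, had 11.99, 10.93 and 11.48 on day 6, against 9.91 and 11.03 on day 1. Its groups overlapped (0.99 ± 0.43 SE, adjusted p = 0.549). MiR-721 had a fold of 1.26 ± 0.60 SE (adjusted p = 0.577) and its 3 further probes gave 1.28 to 1.35.

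**Figure D4:**
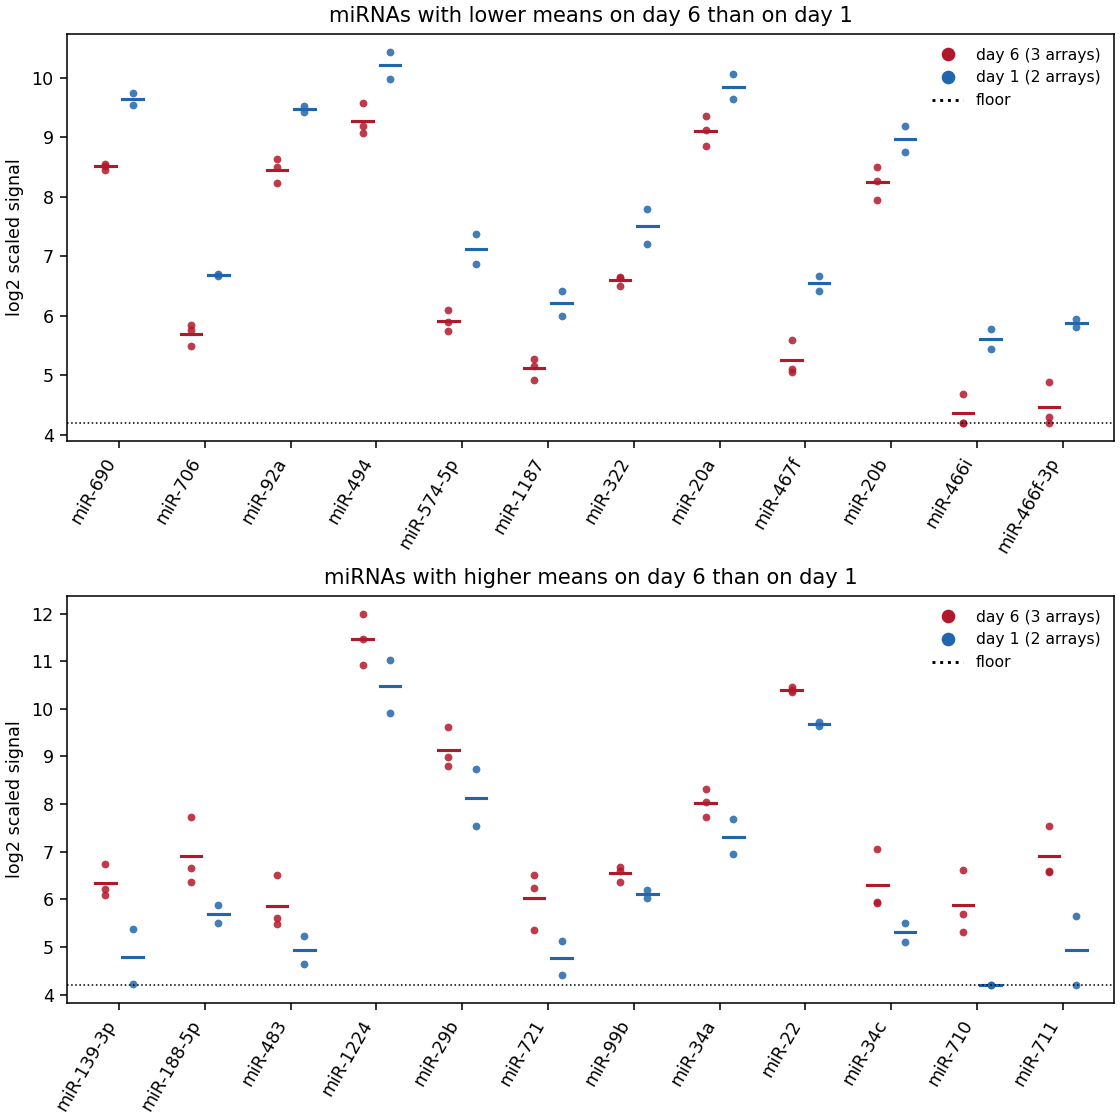
Log2 scaled signal of 12 miRNAs with lower and 12 with higher means on day 6, with 1 point per array, bars for means and the floor dotted. Day 6 (red) stands left of day 1 (blue) for each miRNA. The groups overlap only for miR-1224, beside 27.1% of all 199 tested miRNAs without overlap. Most of those shown were picked by their small p, so little overlap follows from the choice.

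Base composition was read for the miRNAs with an unadjusted p under 0.05, a set picked by its values and with none called. The 6 with higher means had a median GC content of 58.2%, and the 10 with lower means that have a sequence one of 40.0%. The median over all 165 matched miRNAs was 45.5%. Of the 10 lower ones, 4 are the repeat miRNAs, whose median was 37.2%. By GC content, the median log2 fold was 0.13 for the 63 lowest, 0.003 for the 54 between and 0.12 for the 48 highest. Over all 165 matched miRNAs the correlation of GC content with the log2 fold was weak, at Pearson r = 0.15 and Spearman rho = 0.10, across miRNAs that share the same arrays. The part of base composition in the folds was not tested.

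The oligodendrocyte differentiation list had 7 tested members, miR-219, miR-338-3p, miR-338-5p, miR-138, miR-23a, miR-23b and miR-32. All 7 folds were above 0, with a median log2 fold of 0.38, but none of the 7 was called, none reached an unadjusted p under 0.05 and no member had groups without overlap. Without scaling the median turned negative, and without day 1 replicate 2 it was -0.15. MiR-338-3p had 11.22, 9.54 and 10.92 on day 6, against 11.16 and 7.66 on day 1 (log2 fold 1.15 ± 1.38 SE, adjusted p = 0.953, 95% interval -2.02 to 4.32). Day 1 replicate 1 was as high as the day 6 arrays and day 1 replicate 2 far lower. The fold was -0.60 without day 1 replicate 2 and 2.90 without day 1 replicate 1.

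MiR-219 had 6.36, 5.79 and 7.17 on day 6, against 6.72 and 4.20 (the floor) on day 1 (log2 fold 0.98 ± 1.16 SE, adjusted p = 0.953). It turned to -0.28 without day 1 replicate 2. MiR-138 repeated this picture in its values, with 6.84, 5.95 and 7.05 on day 6, against 6.83 and 4.27 on day 1 (1.06 ± 1.03 SE, adjusted p = 0.945; -0.22 without day 1 replicate 2). On day 0 the same 3 miRNAs were highest on replicate 2, at 8.14 for miR-219, 7.64 for miR-138 and 11.53 for miR-338-3p, levels above every day 6 array. These defining markers of oligodendrocytes thus did not follow the label from immature to mature on every array. MiR-219 was detected on 3 of 3 day 6 arrays and 1 of 2 day 1 arrays. In bulk samples such as these, fewer cells of a type and less of the RNA per cell cannot be told apart.

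The other members of this list had small folds. MiR-23a, which represses lamin B1 and favours oligodendrocyte differentiation in mouse, had 10.12, 10.38 and 9.68 on day 6, against 9.79 and 10.32 on day 1, a log2 fold of 0.01 ± 0.45 SE. MiR-23b had 0.14 ± 0.40 SE. Both turned negative with scaling over all probes and without scaling. MiR-338-5p was detected on 1 array of each day and had a fold of 0.05 ± 0.31 SE.

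Of 7 miRNAs linked to precursor cells, 3 had folds above 0 and 4 below, with a median log2 fold of -0.20 that turned positive with scaling to the control probes, and none was called. MiR-9, enriched in neural progenitors, had a fold of -0.21 and miR-7a one of -0.30. MiR-221 (-0.20) and miR-222 (0.33), which share a seed, differed in sign. MiR-335-5p had 5.20, 5.53 and 6.74 on day 6, against 4.20 (the floor) and 5.37 on day 1 (1.04 ± 0.71 SE, adjusted p = 0.813).

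Among the other families, 0 members were called. The 3 miR-29 members had a median log2 fold of 0.45, with 2 of 3 groups wholly higher on day 6, beside 10.1% of all tested. In the miR-34 and miR-449 family, whose miR-34 members are targets of p53, miR-34a (0.72 ± 0.40 SE), miR-34b-5p (0.95 ± 0.57 SE) and miR-34c (1.00 ± 0.57 SE) had groups wholly higher on day 6, while miR-449a had -0.78 ± 0.99 SE. The day 0 values of miR-34c, 5.55, 5.63 and 7.19, reached as high as those of day 6. The 5 tested miR-99, miR-100 and miR-125 members, some of which share clusters with let-7, all had folds above 0 (median 0.31), and miR-99b had 6.68, 6.60 and 6.36 on day 6, against 6.20 and 6.03 on day 1. These 3 medians kept their sign under every scaling run.

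The let-7 family, known for timing developmental steps, had a summed linear signal of 8470 to 8890 on day 6, against 8373 and 10141 on day 1, and the median of its 9 folds was -0.09, turning positive with scaling to the control probes. Its 4 groups without overlap were lower on day 6, beside 17.1% of all tested, with let-7d at -0.32, while let-7e had 0.31. The miR-181 family (median -0.22), miR-26 and miR-101 (-0.20) and the miR-30 family (-0.02) likewise turned positive with scaling to the control probes. The 5 members of the miR-23, miR-27 and miR-24 clusters had folds from 0.01 to 0.54 and a median of 0.16 that turned negative with scaling over all probes and without scaling. Of 56 Dlk1-Dio3 miRNAs on the array, 10 were tested. Their median was -0.28, positive with scaling to the control probes, and miR-127 had -0.52.

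The 13 tested miRNAs named miR-680 to miR-721 held members at both ends. Their folds ran from -1.13 for miR-690 to 1.98 for miR-711, with 9 above 0 and 4 below. The median of 0.19 turned negative with scaling over all probes and without scaling. MiR-720 had a fold of 0.03. Of 115 star (passenger) strands on the array, 15 were tested, with a median of 0.18 that turned negative under the same 2 settings, and miR-24-2* had 0.74.

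**Figure D5:**
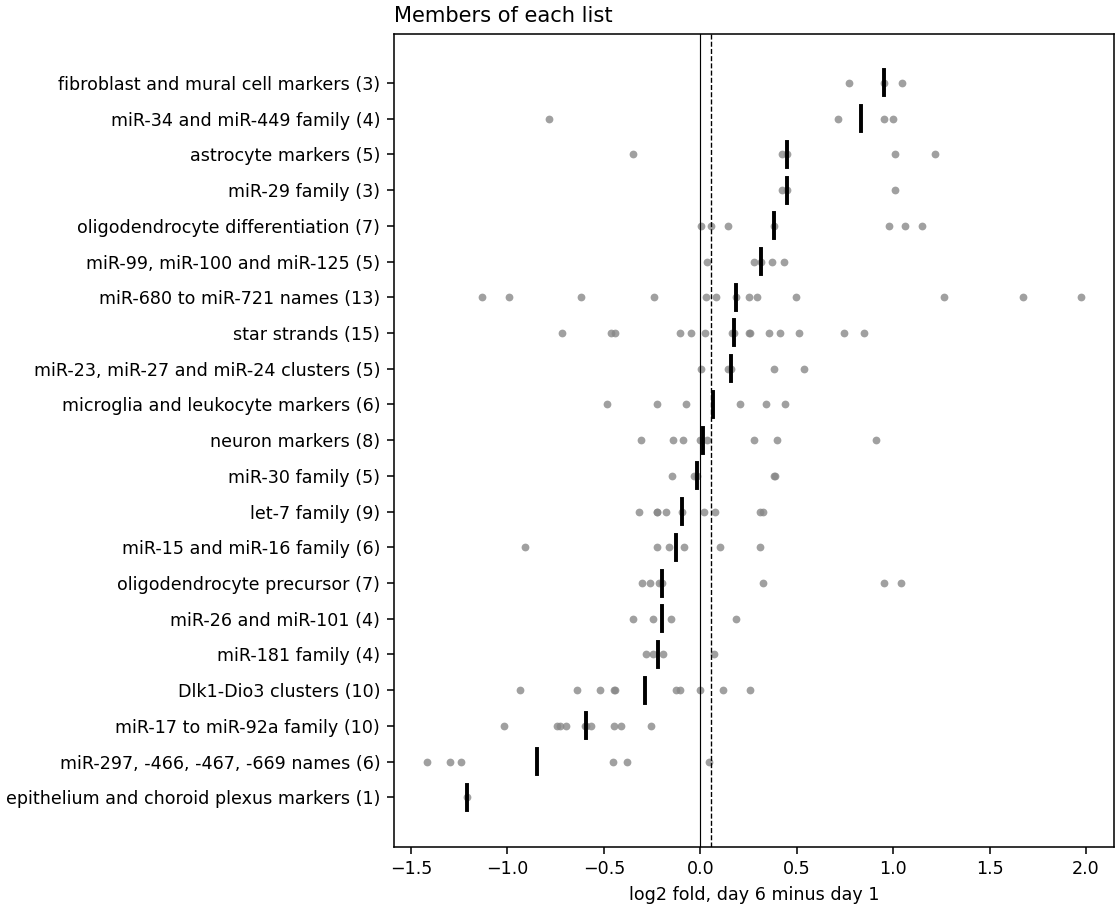
Log2 fold, day 6 minus day 1, of every tested member of each list, with the number tested in parentheses. Thick bars are list medians, the solid line is 0 and the dashed line is the median of all tested miRNAs, 0.05. No member of any list was called, and only the medians of the miR-17 to miR-92a, miR-29, miR-99, miR-34, miR-466 name, astrocyte, fibroblast and epithelium lists kept their sign under every scaling run.

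Markers of other cells were present in the cultures on both days. MiR-223 and miR-142-3p, known from myeloid and other blood-derived cells including microglia, were detected on all 5 arrays. MiR-223 had 8.95, 9.27 and 7.80 on day 6, against 8.96 and 9.36 on day 1, and miR-142-3p had 9.04, 9.32 and 9.01 on day 6, against 9.34 and 8.03 on day 1. The summed signal of the 6 tested markers of this class was 1350 to 2195 on day 6, against 1734 and 1855 on day 1, with a median log2 fold of 0.07 that turned negative with scaling over all probes and without scaling. Their part in the other results was not tested.

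Fibroblast and mural cell markers, 3 of 7 tested, had a summed signal of 87.4 to 384 on day 6, against 104 and 118 on day 1. The median log2 fold was 0.95, but the groups overlapped for each. MiR-143 and miR-199a-5p were at the floor on day 6 replicate 3 and at 5.28 to 6.27 on the other day 6 arrays, so that the day 6 arrays differed among themselves. MiR-145 was detected on none of the 5 arrays. Astrocyte markers, 5 of 5 tested and 3 of them the miR-29 members, had a summed signal of 2354 to 2792 on day 6, against 1845 and 2429 on day 1. Neuron markers, 8 of 10 tested, had a summed signal of 528 to 1729 on day 6, against 722 and 813 on day 1, and a median fold of 0.02 that turned negative under 3 other scalings.

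Endothelial (0 of 2), erythroid (0 of 3) and muscle (0 of 4) markers were detected on none of the 5 arrays. Of 7 epithelial and choroid plexus markers only miR-204 was tested. It had 4.24, 5.25 and 4.20 on day 6, against 5.34 and 6.20 on day 1 (log2 fold -1.21 ± 0.94 SE, adjusted p = 0.860), without overlap. Its day 0 values were 8.16, 4.39 and 6.49. MiR-211 and the miR-200 members were at the floor.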

How the data were processed

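MiRNA levels were measured on 8 Agilent 1-colour arrays, 3 of day 6, 2 of day 1 and 3 of day 0, 1 sample each. Per the file headers, the deposited spot intensities come from Agilent Feature Extraction 9.5, are background-subtracted, linear and not scaled between arrays, and can lie below 0. The deposited table of values differs from these intensities by at most 0, so its scale and direction are known and it is not centred. Median probe intensities per array were -13.3 on day 0 replicate 1 and -1.35 to 0.799 on the others.

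Of 13715 spots per array, 13000 were not controls and formed 1857 probes for 611 mouse and 39 viral miRNAs. Outlier spots were dropped before averaging each probe. Arrays were scaled by the 75th percentile of the 91 probes that all 8 arrays detected. The 5th percentile of detected values, 18.4 in linear and 4.20 in log2 units, served as a floor. Each miRNA took its brightest probe and was detected where any of its probes was. Tests covered the 199 mouse miRNAs with 3 or more detections and left out 412. This filter can admit a miRNA detected only on day 6, but not one detected only on the 2 day 1 arrays. Values at the floor have no order, and folds against them depend on the floor.

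R 4.3 with limma 3.58, and the data.table package at version 1.17, fitted 1 mean per day on the log2 scale to all 8 arrays, with moderated variances (5 residual and 3.16 prior degrees of freedom). Contrasts were day 6 minus day 1 and day 1 minus day 0, two-sided, with Benjamini-Hochberg adjustment over the 199 miRNAs and a call at an adjusted p under 0.05. For a miRNA undetected on 1 day, the mean of the day that detected it was set against the lowest detected signal of the other arrays. This gives no strict minimum of the fold. Figures used Python 3.11 and matplotlib 3.10. Only the limma fit was tested on simulated data, with independent noise of 1 common SD and without the floor, scaling or choice of probe. The number of arrays limits the precision.

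The comparison, its lists and its tests were chosen with earlier results of these data known. By rule, 65 miRNAs could be named, which were any called, the 10 smallest p in each direction among miRNAs detected on all 5 arrays, up to 4 in each direction detected on every array of one day and none of the other, all tested oligodendrocyte differentiation and miR-17 to miR-92a miRNAs, and the 2 smallest p of each remaining list. Others named, such as miR-711, miR-714, miR-720 and further list members, were chosen after their values were seen. Alternatives concerned scaling, background correction (normexp with an offset of 50), probe summary, floor, detection filter, outlier spots, variance moderation, array weights, a replicate block, the slide row, the arrays in the fit and leaving out each array.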

Additional observations from a re-analysis of the deposited data

Results flagged for a closer look

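Signal appeared on probes for viral miRNAs, which the comparisons above did not use. Of 39 viral miRNAs on the array, 4 were detected on at least 3 arrays, each on all 3 day 6 arrays, both day 1 arrays and 7 of the 8 arrays in all. The log2 fold, day 6 minus day 1, of mcmv-miR-M23-1-5p was 0.55, that of mcmv-miR-m88-1 was 0.18, and the probes of mcmv-miR-M23-1-3p gave 0.17. For mghv-miR-M1-2 it was 0.13. The mean log2 scaled signal of mcmv-miR-m88-1 was 5.92 ± 0.29 on day 6 (SD, n = 3) and 5.74 ± 0.26 on day 1 (SD, n = 2).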

How the results depend on the processing

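In day 6 against day 1, 0 calls became 3 with scaling to control probes (miR-139-3p, miR-710 and miR-711, higher on day 6), 3 with the floor doubled (miR-690, miR-706 and miR-1187, lower), 1 when only the 53 miRNAs detected on all 8 arrays were tested (miR-690, lower) and 9 with array weights (3 higher and 6 lower, where day 0 replicate 1 weighed 0.185). The cause was not tested, except that 1 of these settings tests fewer miRNAs. The weights also raised day 6 replicate 1 to 2.35 and lowered day 6 replicate 2 to 0.751, and leaving out day 0 replicate 1 alone gave 0 calls. The other alternatives gave 0 calls, leaving out any 1 of the 8 arrays included, where the count was 0 to 0 and 11 to 31 miRNAs had an unadjusted p under 0.05. In day 1 against day 0, 3 calls became 1 when only miRNAs detected on all 8 arrays were tested, and 2 to 4 otherwise, 2 to 3 without 1 array. MiR-494 was the call lost with scaling over all probes, no scaling, the replicate block and without day 1 replicate 2, and miR-706 with the mean of all probes and normexp. With the replicate number as a block there were 0 calls in day 6 against day 1 and 2 in day 1 against day 0. Deviations from the day mean, for arrays with the same replicate number, correlated at 0.158 and 0.250 between day 6 and day 1. They correlated at -0.378 and -0.708 between day 1 and day 0, and at -0.074, -0.389 and 0.317 between day 6 and day 0. These values cannot decide whether replicate numbers pair the arrays, since the 2 day 1 deviations are equal in size and opposite in sign. Of 66 miRNAs followed over 27 alternatives, 25 changed sign in some setting, 47 of 1718 values in all, and 0 of the 17 with an unadjusted p under 0.05 did. Those 17 were picked by their p in these same arrays, so a constant sign largely follows from that choice. Leaving day 1 with 1 array assumes that it varies like the other days. Signal over background limits values near the floor, where 15 tested miRNAs lay on both day 1 arrays and 7 on all day 6 arrays.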

Other observations

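Seed groups outside the lists were examined for members that part from each other. MiR-721 shares the seed AGUGCAA with miR-130a, miR-130b and miR-301a, and had log2 scaled signals of 6.52, 5.37 and 6.23 on day 6, against 4.42 and 5.13 on day 1, a log2 fold of 1.26 ± 0.60 SE (limma, adjusted p = 0.577). The other members of that seed had folds of 0.18 for miR-130a, 0.03 for miR-301a and -0.10 for miR-130b, each with overlapping groups and a fold smaller than its SE. MiR-103 and miR-107, a pair of one seed, had folds of 0.01 and 0.06, both with SE of 0.27. MiR-148a was at the floor on all 3 day 6 arrays, against 4.52 and 4.58 on day 1, while miR-148b and miR-152, of the same seed, had folds of 0.40 and 0.27 with overlapping groups. These miRNAs were chosen after their values were seen, and none was called.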
